A study of Homo sapiens with 6 samples.

Results

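The genes described here are developmental transcription factors, found among the genes that differed between parental PC9 cells and their gefitinib-resistant derivative PC9-GR. They were chosen by symbol: protein-coding rows of the deposited list that start with one of 26 family prefixes, of which 15 found a gene (HOX, LHX, DLX, MSX, NKX, IRX, MEIS, KLF, ELF, ETV, SOX, TBX, HES, HEY and BHLH). The prefixes FOX, GATA, TFAP2, RUNX, PAX, NFI and EGR are among those that found none within the rule. Genes of chromosomes 14 and 18 and the genes FOXA1 and ETV4 were left out of the members, though not of the pathway lists used further on. This found 23 of 1705 listed genes. Of these, 21 encode DNA-binding factors. The other 2, TBXAS1 and TBXA2R, share only the letters TBX, as they encode thromboxane A synthase and the thromboxane A2 receptor, and they are described apart.

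PC9 is a human lung adenocarcinoma line with a deletion in EGFR exon 19, which both groups carry, and it is described in the labels as epithelial. PC9-GR was derived from it by stepwise exposure to gefitinib, an EGFR kinase inhibitor, from 0.5 to 10 µM, and was then kept at 10 µM. The resistant cells grew without the drug for 7 days before RNA was taken, and PC9-GR is 1 derived line. Each group has 3 libraries from independent cultures. The values are FPKM, fragments per kilobase of transcript scaled to the size of the library, so levels are per length and can be set beside each other. Values with ± give the mean and SD over n = 3 libraries, and folds are ratios of mean FPKM.

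Developmental transcription factors bind short DNA motifs through a family-specific domain and set which genes a cell type can use. Homeodomain factors (HOX, LHX, DLX, MSX, NKX, IRX and MEIS genes) specify position and organ identity in the embryo. Basic helix-loop-helix (bHLH) repressors of the HES and HEY families carry out Notch signals, and ETS, KLF and SOX factors control the differentiation of epithelia and other tissues. In airway and other epithelia, KLF5 and ELF5 are known as factors of progenitor cells.

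The list is a selection made by the authors on the same 6 libraries. All 1705 genes have an authors' log2 ratio beyond 1 in size, so a difference between the groups is the condition for being listed and the tests below are not independent evidence. Sequencing depth is unknown, since no counts were available and only 5 listed genes stayed under 0.4 FPKM in every library, too few to recover the value of 1 read. Between 987 and 1150 listed genes reached 1 FPKM in a library. None of 10 epithelial, 6 lung alveolar and 7 endothelial markers is among the listed genes, so the labelled cell type could not be checked and these markers were not analysed here. Of 8 fibroblast markers, PDGFRB is listed, at 0.0661 to 0.143 FPKM in parental and 2.38 to 3.77 FPKM in resistant cells. Of 10 haematopoietic markers 5 are listed and 4 were called higher in PC9-GR, as were 48.4% of the 1207 listed genes tested. Their summed level was 20.5 to 24.6 FPKM in parental and 46.2 to 57.0 FPKM in resistant cells, of which CD68 alone made up 18.6 ± 1.05 and 38.4 ± 3.61 FPKM. The fifth marker, LYZ, was below the filter for testing and went the other way, from 1.09 ± 0.459 FPKM in parental to 0.142 ± 0.125 FPKM in resistant cells, with 1 PC9-GR library at the floor of the table. The part of such markers in the results below was not tested, and in bulk RNA fewer cells of a type and less RNA per cell cannot be told apart.

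The start-site sequences of the genes on which the results turn are shown first, because these genes include the highest-level factors, all lower in PC9-GR, and strongly higher homeodomain genes. Each is the 250 bases before a transcription start in RefSeq (GRCh38.p14), 5′ to 3′ on the strand of the gene. KLF5 has 2 annotated starts, which FPKM per gene does not separate. Capitals mark the E-box CACGTG, a motif of HES, HEY and BHLHE41 proteins, and the KLF box CACCC, each searched on both strands, so that the KLF box can read GGGTG.
KLF5 upstream start, chr13:73054726-73054975, plus strand: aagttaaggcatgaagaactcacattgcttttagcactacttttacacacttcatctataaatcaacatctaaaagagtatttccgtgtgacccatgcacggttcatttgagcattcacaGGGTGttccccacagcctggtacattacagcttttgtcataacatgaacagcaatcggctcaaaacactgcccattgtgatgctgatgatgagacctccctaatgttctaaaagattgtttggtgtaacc
KLF5 downstream start, chr13:73058755-73059004, plus strand: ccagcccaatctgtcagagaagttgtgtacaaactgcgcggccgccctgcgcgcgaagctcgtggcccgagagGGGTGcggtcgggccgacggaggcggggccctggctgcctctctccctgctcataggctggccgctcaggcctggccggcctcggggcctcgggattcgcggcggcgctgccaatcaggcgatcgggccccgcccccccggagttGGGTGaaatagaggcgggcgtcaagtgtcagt
BHLHE41, chr12:26125038-26125287, minus strand: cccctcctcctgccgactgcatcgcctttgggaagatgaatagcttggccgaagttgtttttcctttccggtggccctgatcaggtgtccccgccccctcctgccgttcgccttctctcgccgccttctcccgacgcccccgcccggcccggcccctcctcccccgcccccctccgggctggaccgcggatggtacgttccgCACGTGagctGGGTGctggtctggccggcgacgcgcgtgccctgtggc
ELF5, chr11:34511725-34511974, minus strand: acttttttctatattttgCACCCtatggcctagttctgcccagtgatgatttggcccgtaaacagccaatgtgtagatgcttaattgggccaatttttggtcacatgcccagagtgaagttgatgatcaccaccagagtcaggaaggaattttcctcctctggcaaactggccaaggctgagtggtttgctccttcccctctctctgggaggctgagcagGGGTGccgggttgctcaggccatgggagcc
MSX1, chr4:4859415-4859664, plus strand: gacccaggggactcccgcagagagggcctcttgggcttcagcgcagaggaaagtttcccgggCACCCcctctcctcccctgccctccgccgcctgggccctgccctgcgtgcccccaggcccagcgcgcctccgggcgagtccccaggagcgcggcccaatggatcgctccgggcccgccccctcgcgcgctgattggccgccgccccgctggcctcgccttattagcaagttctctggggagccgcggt
DLX1, chr2:172085257-172085506, plus strand: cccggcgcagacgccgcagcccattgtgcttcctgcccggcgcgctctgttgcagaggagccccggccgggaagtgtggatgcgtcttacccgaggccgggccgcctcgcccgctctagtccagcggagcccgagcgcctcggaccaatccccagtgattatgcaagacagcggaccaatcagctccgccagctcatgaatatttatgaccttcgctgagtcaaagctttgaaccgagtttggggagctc

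The table of start-site sequences matched 15 of the 23 genes, and 1 window per gene, at its most upstream start, was searched. CACGTG was found in 1 of the 15 windows, that of BHLHE41 itself, and in 6.34% of 35116 RefSeq windows of the same length. CACCC was found in 10 of 15, against 54.7% of all windows, and the ETS core GGAAG in 12 of 15, against 65.1%. The homeodomain core TAATTA was in 0 of 15 and in 4.35% of all windows. GGAAG and TAATTA are not marked above, and no searched motif contains another. Median GC content was 70.4% over the 8 matched genes with a higher mean in PC9-GR (42.0% to 78.0%), 58.8% over the 7 with a lower mean (40.8% to 72.0%) and 58.0% over all windows. The 40.8% is the upstream start of KLF5, and its downstream start, not counted here, had 70.8%. All windows can hold several starts of a gene, unlike those of the members. These are descriptions of letters and say nothing of binding.

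Among the members, the factors with the highest levels in PC9 fell in PC9-GR, whereas most homeodomain factors, which were low in PC9, were higher. KLF5 and BHLHE41 together fell from 200.6 ± 22.0 to 72.0 ± 8.62 FPKM, and the 13 homeodomain factors together measured 9.30 ± 0.566 FPKM in parental and 23.7 ± 1.12 FPKM in resistant cells. By mean FPKM, 11 of 13 homeodomain factors were higher in PC9-GR and 2 lower, and 1 of the 8 factors of other classes was higher and 7 lower. Over all 1705 listed genes, 871 were higher and 834 lower by mean log2(FPKM + 1). Listed genes that reached 1 FPKM in 3 or more libraries were tested with limma on log2(FPKM + 1) and called at a Benjamini-Hochberg adjusted p under 0.05. This kept 13 of the 23 genes, and 7 were called higher and 6 lower. Only 6 of the homeodomain factors were tested, with 5 called higher and 1 lower. Of the 1207 listed genes tested, 99.7% were called, with 48.4% of the 1207 higher and 51.3% lower, so the members' call rate is that of the list. Of the 13 tested members, 8 passed the filter only through the group where they were high, 6 of them through PC9-GR. The groups did not overlap for any of the 23 genes, against 94.8% of all listed genes.

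Level and direction went together across the list as well. Of the 13 members with a PC9 mean under 1 FPKM, 11 were higher in PC9-GR (84.6%), and among all 704 listed genes under that level 522 were higher (74.1%). The 3 members at 5 FPKM or more in PC9 were lower in PC9-GR, and 419 of 532 such listed genes were lower. Of the 13 homeodomain factors, 10 had a PC9 mean under 1 FPKM, and 9 of those 10 were higher. The classes therefore differ in level as well as in direction, and these cannot be told apart here. The median log2(FPKM + 1) difference was 0.38 over the 23 members and 0.29 over all listed genes.

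**Figure D1:**
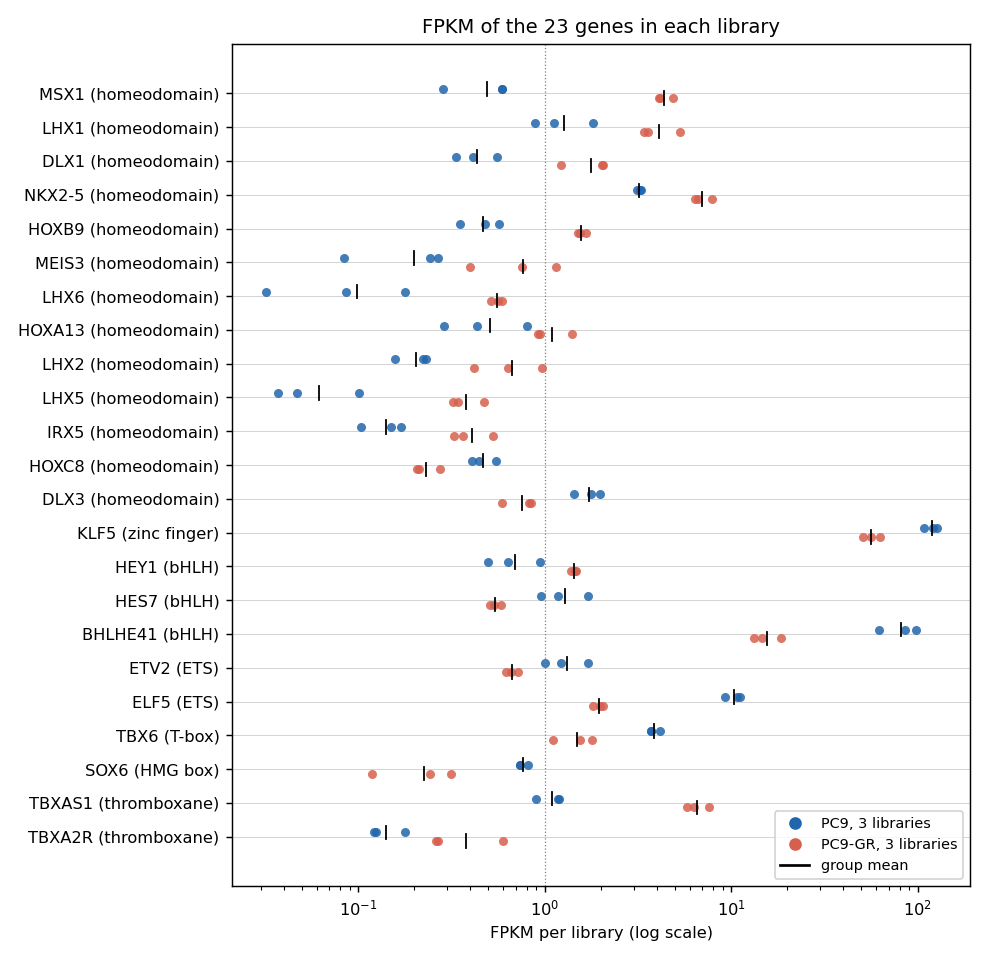
FPKM of each of the 23 genes in the 3 PC9 (blue) and 3 PC9-GR (red) libraries on a log axis, grouped by DNA-binding class, with group means as black bars and a dotted line at 1 FPKM. The 2 groups do not overlap for any gene; MSX1 shows the widest gap among homeodomain genes, and KLF5 in both groups and BHLHE41 in PC9 sit far to the right of the others.

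KLF5, a zinc finger factor that supports proliferation in gut, skin and lung epithelium, had the highest level of the 23 genes in both groups. It measured 108.8, 126.8 and 120.6 FPKM in the PC9 libraries and 50.8, 56.2 and 62.6 FPKM in the PC9-GR libraries. Every PC9-GR library was below every PC9 library. KLF5 (ENSG00000102554; chromosome 13, 73629113 to 73651676 in the deposited table, whose build is not named) fell 2.10-fold, from 118.8 ± 9.15 to 56.6 ± 5.93 FPKM. The log2 difference was -1.06 (SE 0.11, limma adjusted p = 1.0e-05). With libraries set to equal totals over the 1705 listed genes the KLF5 fold was 1.20, and under quantile normalization its log2 difference was -0.22. Here and below, such totals cover only genes selected as changed and not the whole library.

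BHLHE41, a bHLH repressor of the circadian clock also called DEC2, had the second highest level in PC9. Its values were 85.2, 98.3 and 62.0 FPKM in parental and 13.3, 14.6 and 18.6 FPKM in resistant cells. The PC9 libraries were spread widely, but the lowest lay well above the highest PC9-GR library. BHLHE41 (ENSG00000123095; chromosome 12, 26272958 to 26986131) fell 5.29-fold, from 81.8 ± 18.4 to 15.5 ± 2.75 FPKM, a log2 difference of -2.32 (SE 0.18, limma adjusted p = 1.62e-06). Its locus in the table spans 713174 bp and holds 3 other listed genes, SSPN, RP11-283G6.5 and RP11-283G6.3, and each of these was also called lower, 2.50-fold, 3.26-fold and 5.23-fold. Whether BHLHE41 itself fills this interval was not tested, and a table locus may be wider than its gene. The kit was strand-specific but the strand setting of the counting is not given, so reads may be shared where genes do overlap. BHLHE41 and HES7 are both repressive bHLH factors with lower means, and HEY1 is the third bHLH gene and went the other way. Chosen after its values were seen, NPAS2, a bHLH activator of the clock, fell 2.52-fold from 107.1 ± 9.05 to 42.5 ± 0.651 FPKM.

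ELF5, an ETS factor of mammary and distal lung epithelium, measured 9.24, 10.7 and 11.1 FPKM in parental and 1.82, 1.97 and 2.05 FPKM in resistant cells. The groups were far apart and both were tight. ELF5 (ENSG00000135374; chromosome 11, 34500339 to 34535352) fell 5.32-fold, with a log2 difference of -1.94 (SE 0.13, limma adjusted p = 7.72e-07). The other ETS member, ETV2, which specifies endothelial and blood precursors, fell from 1.31 ± 0.356 to 0.665 ± 0.0485 FPKM. The ETV2 call was lost with equal library totals (limma adjusted p = 0.526), where its groups overlapped. Of 10 ETS factors outside the prefixes, ETS1 and SPDEF are listed. ETS1, a factor of endothelial, lymphoid and invasive cells, rose 2.14-fold to 38.9 ± 2.57 FPKM, and SPDEF, a factor of goblet and other secretory epithelial cells, fell 6.17-fold from 1.29 ± 0.152 FPKM.

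TBX6, a T-box factor of the embryonic paraxial mesoderm, fell from 3.87 ± 0.271 to 1.49 ± 0.353 FPKM, which is 2.60-fold (limma adjusted p = 0.000115). Its libraries ran from 3.70 to 4.18 FPKM in parental and from 1.11 to 1.80 FPKM in resistant cells. SOX6, an HMG box factor of cartilage and muscle, was below the filter at 0.765 ± 0.0469 FPKM in parental and 0.226 ± 0.0996 FPKM in resistant cells, the largest ratio (3.39) among members that were lower after BHLHE41 and ELF5. All 3 listed genes within 1 Mb of the SOX6 locus, OR7E14P, KCNJ11 and NCR3LG1, also had a lower authors' ratio.

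**Figure D2:**
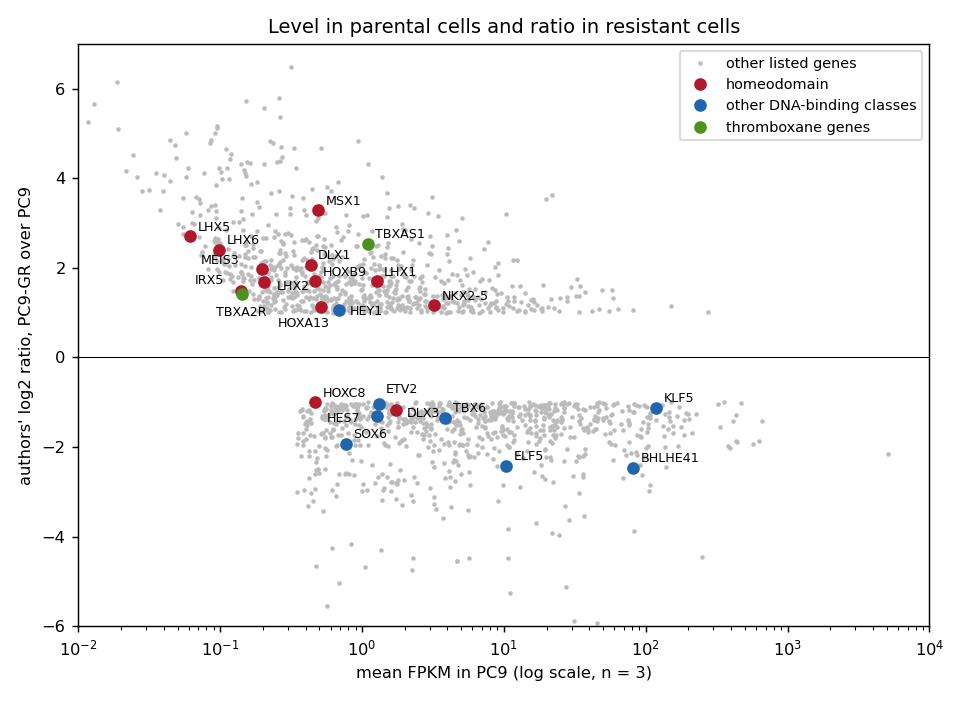
Mean FPKM in PC9 (log axis) against the log2 ratio of PC9-GR to PC9 in the authors' deposited table; grey points are other listed genes (57 fall outside the axes), red homeodomain factors, blue factors of other classes and green the thromboxane genes. Low genes lie mostly above 0 and high genes below it among members and grey points alike; the empty band around 0 is the authors' selection.

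Among the 13 homeodomain members, MSX1, a repressor of differentiation in limb, tooth and facial precursors, had the largest rise. It measured 0.286, 0.591 and 0.593 FPKM in parental and 4.85, 4.17 and 4.11 FPKM in resistant cells. The gap between the groups was several times the spread within either. MSX1 (ENSG00000163132; chromosome 4, 4861392 to 4865663) rose 8.93-fold to 4.38 ± 0.412 FPKM, with a log2 difference of 1.86 (SE 0.14, limma adjusted p = 1.4e-06). The 2 listed genes within 1 Mb, CRMP1 and EVC, were higher as well. Their table loci begin at the same base, 847260 bp from the MSX1 locus, so this is no distance of each gene.

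NKX2-5, known as an early heart factor, had the highest level of the 13 homeodomain members. It measured 3.12, 3.25 and 3.28 FPKM in parental and 7.89, 6.39 and 6.65 FPKM in resistant cells. PC9 libraries were nearly equal, with a coefficient of variation of 2.68%, and PC9-GR libraries were all about 2-fold higher. NKX2-5 (ENSG00000183072; chromosome 5, 172659111 to 172662360) rose 2.17-fold, with a log2 difference of 0.91 (SE 0.13, limma adjusted p = 7.58e-05).

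The LIM homeodomain family, whose members guide neuron and organ identity, has 4 genes in the list, and all 4 had higher means in PC9-GR. LHX1, a factor of kidney and head formation, rose 3.22-fold from 1.27 ± 0.479 to 4.10 ± 1.06 FPKM (limma adjusted p = 0.000239). LHX1 lies beside 2 listed genes with no biotype in the table that were also called higher, RP11-445F12.1 at 123 bp (2.95-fold) and RP11-445F12.2, whose locus overlaps that of LHX1 (2.57-fold). LHX2, LHX5 and LHX6 were below the filter. They measured 0.204 ± 0.0393, 0.0617 ± 0.0344 and 0.0986 ± 0.0738 FPKM in PC9. In PC9-GR the same 3 genes measured 0.672 ± 0.277, 0.379 ± 0.0811 and 0.555 ± 0.0355 FPKM. The ratio of LHX5 was 6.14 and that of LHX6 5.63, but with PC9 values this low their size is uncertain.

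The DLX genes, distal-less factors of forebrain, face and skin, split by direction. DLX1, of forebrain interneurons, rose 4.08-fold, from 0.337 to 0.555 FPKM in PC9 libraries to 1.23 to 2.04 FPKM in PC9-GR libraries (limma adjusted p = 0.000119). DLX3, a factor of epidermal and tooth differentiation, fell. It measured 1.44, 1.76 and 1.98 FPKM in parental and 0.824, 0.840 and 0.594 FPKM in resistant cells, and the groups did not overlap. DLX3 (ENSG00000064195; chromosome 17, 48067368 to 48072588) fell 2.30-fold (limma adjusted p = 0.000563), and this call was lost with equal library totals (limma adjusted p = 0.118).

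The HOX genes, which set position along the body axis, are represented by 1 gene each of the A, B and C clusters. HOXB9, from the trunk part of its cluster, rose 3.36-fold, from 0.467 ± 0.107 to 1.57 ± 0.0816 FPKM (limma adjusted p = 3.51e-05). HOXA13, of limb ends and hindgut, was below the filter at 0.512 ± 0.268 and 1.09 ± 0.273 FPKM, and its highest PC9 library (0.809 FPKM) was close to its lowest PC9-GR library (0.923 FPKM). With median-ratio scaling the HOXA13 groups overlapped. HOXC8, a trunk factor, was the HOX gene with a lower mean in PC9-GR. It measured 0.446, 0.548 and 0.410 FPKM in parental and 0.213, 0.207 and 0.276 FPKM in resistant cells. Its groups did not overlap as deposited and did with equal library totals, where the fold was 1.16. In the authors' deposited table HOXC8 (ENSG00000037965; chromosome 12, 54375292 to 54449814) is given a ratio of 0.4999 with q = 0.0486, at the edge of the authors' selection.

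Of the remaining homeodomain members, both below the filter, MEIS3 encodes a partner of HOX proteins and IRX5 an Iroquois factor of heart and retina. MEIS3 was the more variable of the pair, at 0.0837 to 0.268 FPKM in parental and 0.396 to 1.15 FPKM in resistant cells. IRX5 measured 0.141 ± 0.0340 FPKM in parental and 0.408 ± 0.108 FPKM in resistant cells. The non-coding gene CRNDE, which lies 1672 bp from IRX5, was called higher, with 1.99 ± 0.663 FPKM in parental and 6.67 ± 2.84 FPKM in resistant cells (limma adjusted p = 0.00092).

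The Notch effectors HEY1 and HES7 had opposite directions. HEY1, a Notch target in vessels and heart, measured 0.636, 0.498 and 0.939 FPKM in parental and 1.45, 1.47 and 1.39 FPKM in resistant cells. PC9-GR libraries were tight and above every PC9 library. HEY1 (ENSG00000164683; chromosome 8, 80676244 to 80680098) rose 2.08-fold with a log2 difference of 0.53 (SE 0.12, limma adjusted p = 0.00149), and the call was lost under quantile normalization (limma adjusted p = 0.121). HES7, the oscillating repressor of somite formation, was below the filter at 1.28 ± 0.386 FPKM in parental and 0.544 ± 0.0376 FPKM in resistant cells, and its groups overlapped with equal library totals. ALOXE3, a lipoxygenase gene of skin at 1542 bp from HES7, went the other way, at 0.314 ± 0.0676 FPKM in parental and 0.818 ± 0.443 FPKM in resistant cells, and was below the filter. Of 27 other Notch pathway genes 3 are listed, and all 3 were called lower. Over the whole list, 51.3% of the 1207 genes tested were called lower. Of 532 listed genes at 5 FPKM or more in PC9, as JAG1 and DTX4 were, 419 were lower. The ligand JAG1 fell 2.35-fold from 19.6 ± 1.52 FPKM, the regulator DTX4 fell 2.42-fold from 20.4 ± 1.94 FPKM, and MFNG, which adds sugars to Notch receptors, fell 2.39-fold from 2.77 ± 0.281 FPKM.

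For the 10 members below the filter, the two-sided exact permutation p was 0.1 each time, which is the lowest that 3 against 3 libraries can give and cannot pass 0.05. Of these 10, 7 had a higher and 3 a lower mean in PC9-GR, and group means ran from 0.0617 to 1.28 FPKM. Without the filter, limma called all 10, with adjusted p from 0.000401 to 0.0377, as it did 97.1% of the whole list. It then called 14 of the 23 members higher and 9 lower, against 49.6% and 47.5% of the list.

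Summed over the 21 factors, PC9 libraries held 211.2 to 252.7 FPKM and PC9-GR libraries 94.7 to 111.6 FPKM. KLF5 and BHLHE41 made up 86.5% to 89.1% of this sum in PC9 and 67.7% to 72.7% in PC9-GR. The other 19 factors together measured 27.6 ± 1.03 FPKM in parental and 30.0 ± 0.924 FPKM in resistant cells. These near-equal sums join opposite moves, so falls were not confined to KLF5 and BHLHE41. ELF5 fell from 10.4 ± 0.987 to 1.95 ± 0.117 FPKM, and ETV2, TBX6, SOX6 and HES7 were lower too, while HEY1 and the homeodomain part rose. The homeodomain part ran from 8.81 to 9.92 FPKM in parental and from 22.4 to 24.3 FPKM in resistant cells. The size of the drop depended on the scaling. The sum over all 21 factors was 2.24-fold lower in PC9-GR as deposited and 1.28-fold lower with equal library totals, where PC9 libraries held 160.8 to 197.2 FPKM and PC9-GR libraries 131.7 to 151.6 FPKM. With equal totals the other 19 factors held 21.5 to 21.8 FPKM in parental and 39.5 to 42.5 FPKM in resistant cells, and the homeodomain part 7.15 to 7.55 FPKM and 30.6 to 33.8 FPKM.

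**Figure D3:**
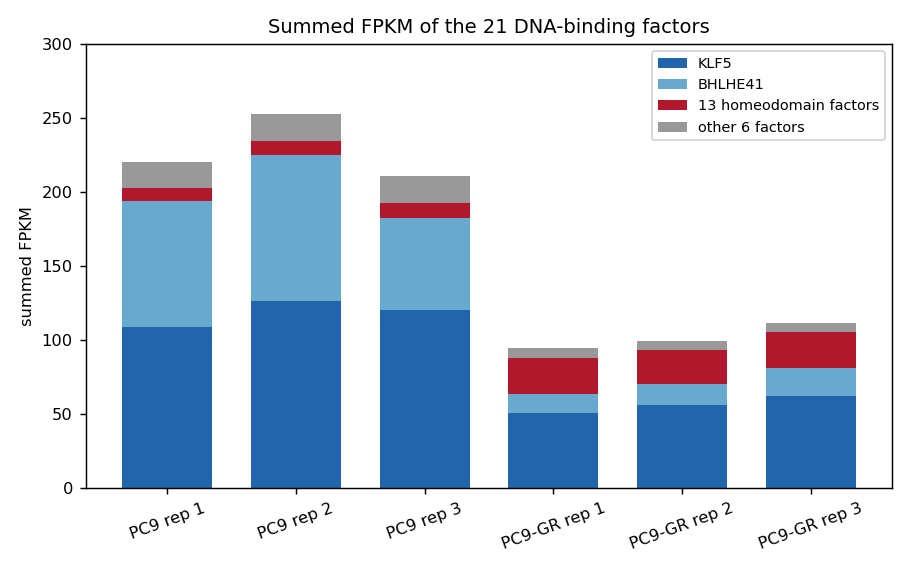
Stacked bars of summed FPKM (from 0) in each of the 6 libraries for KLF5, BHLHE41, the 13 homeodomain factors and the other 6 factors. The sum is 211.2 FPKM or more in PC9 and 111.6 FPKM or less in PC9-GR, while the red homeodomain segment grows from about 9.30 to 23.7 FPKM on average.

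The direction of all 23 genes was the same as deposited, with equal library totals and with median-ratio scaling. Equal totals moved the median gene by 0.61 on the log2 scale and median-ratio scaling by -0.23, so folds of lower genes shrink under the first and grow under the second. BHLHE41 was 3.04-fold lower with equal totals and 6.59-fold lower with median-ratio scaling, and for MSX1 the folds were 15.7 and 7.27 higher.

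**Figure D4:**
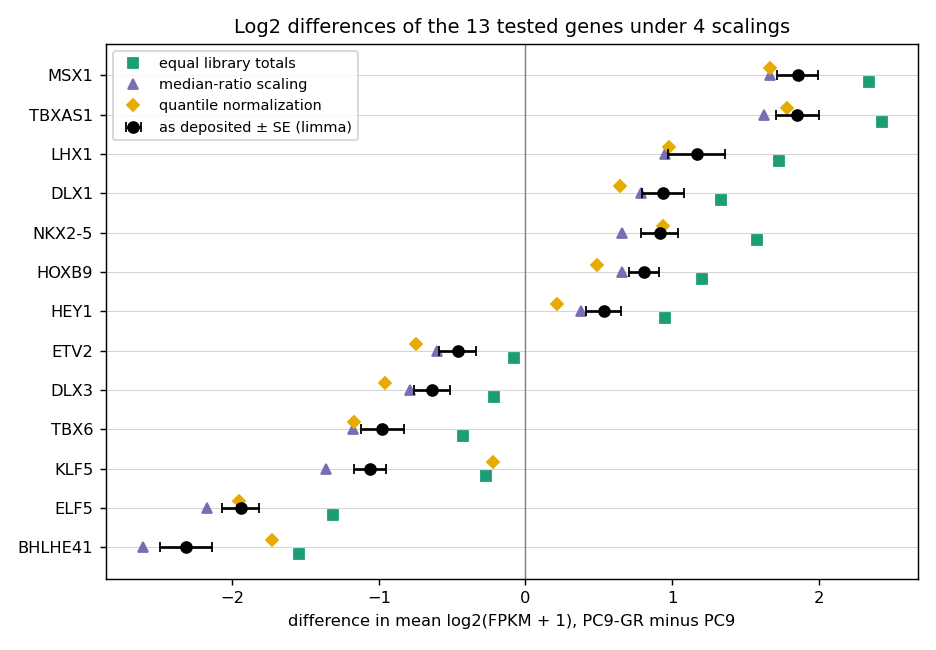
Difference in mean log2(FPKM + 1), PC9-GR minus PC9, for the 13 tested genes: as deposited with limma standard errors (black) and under equal library totals, median-ratio scaling and quantile normalization (coloured markers). No marker crosses 0; ETV2 at -0.08 with equal totals comes closest.

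The 2 thromboxane genes were both higher in PC9-GR by mean. TBXAS1, which makes thromboxane A2 from prostaglandin H, measured 0.900, 1.19 and 1.20 FPKM in parental and 7.64, 5.79 and 6.34 FPKM in resistant cells. Every PC9-GR library was several-fold above every PC9 library. TBXAS1 (ENSG00000059377; chromosome 7, 139246315 to 139720125) rose 6.02-fold with a log2 difference of 1.85 (SE 0.15, limma adjusted p = 1.88e-06). Its locus overlaps that of HIPK2, which was called higher 2.07-fold. TBXA2R, the receptor, was below the filter at 0.142 ± 0.0317 FPKM in parental and 0.377 ± 0.194 FPKM in resistant cells, and 1 of its PC9-GR libraries, at 0.601 FPKM, was well above the other two.

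Pathways that feed these factors were read from lists of other genes. Of all 1207 listed genes tested 99.7% were called, 48.4% higher and 51.3% lower, so being called is no trait of a pathway. Of 52 Wnt genes 10 are listed, and of 6 tested 4 were called higher and 2 lower. WNT4, a ligand, rose 4.87-fold to 2.35 ± 0.325 FPKM and DKK3, a secreted Dickkopf protein, 2.62-fold to 10.1 ± 2.57 FPKM, whereas the ligand WNT11 fell 4.70-fold from 33.1 ± 5.56 FPKM and SFRP1, a secreted Wnt antagonist, 2.55-fold from 25.6 ± 0.949 FPKM. Of 35 BMP and TGF-beta genes 6 are listed, with 4 called higher and 1 lower. GDF15 rose 5.86-fold, TGFB2 rose 2.52-fold from 24.7 ± 2.55 to 62.1 ± 4.69 FPKM, and BMP4 (chromosome 14), a ligand that induces MSX and DLX genes in the embryo, fell 3.00-fold from 15.2 ± 4.71 FPKM.

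Of 14 Hedgehog genes only CDON, a co-receptor, is listed, and it fell 2.12-fold. Of 21 retinoid genes 3 are listed. ALDH1A2, which makes retinoic acid, fell 3.68-fold from 4.08 ± 1.89 FPKM, and the receptor RARB was below the filter at 0.170 ± 0.101 and 0.956 ± 0.350 FPKM. Of 28 cofactors CITED4 and TLE4 are listed. CITED4, a coactivator, fell 3.11-fold from 10.8 ± 2.41 FPKM. TLE4, a corepressor that works with HES proteins, was below the filter. It is listed at the floor of 0.001 FPKM in the 3 PC9-GR libraries, against 0.171 to 0.924 FPKM in PC9.

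Of 124 developmental factors outside the prefixes 18 are listed, and of 15 tested 6 were called higher and 9 lower, against 48.4% and 51.3% of the 1207 listed genes tested. ZEB2, a repressor of epithelial genes, rose 12.7-fold to 4.07 ± 0.746 FPKM, and EBF4, of the early B-cell factor family, rose 8.57-fold to 4.57 ± 0.538 FPKM. TSHZ1 (chromosome 18), a teashirt zinc finger factor, fell 4.46-fold from 4.53 ± 0.397 FPKM, and OVOL1, an epithelial zinc finger factor, fell 3.44-fold from 7.67 ± 0.184 FPKM. Homeodomain genes outside the prefixes went both ways. PITX1 fell 2.10-fold from 31.9 ± 1.42 to 15.2 ± 1.43 FPKM, above every homeodomain member in both groups. SHOX2 rose 2.45-fold to 1.90 ± 0.331 FPKM. GBX2 and POU3F2, below the filter, had higher means in PC9-GR, at 0.567 ± 0.0704 and 0.597 ± 0.0111 FPKM. ONECUT2 (chromosome 18), also below the filter, had a lower mean.

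Within 1 Mb of their loci, 19 of the 23 genes had a listed neighbour and 4 had none. Of 57 such pairs 33 shared a direction (57.9%), against 74.5% of the 2745 pairs within this distance in the whole list. In both sets, genes that share a locus count as pairs. The whole list keeps the chromosomes that were left out of the members. The shares here and within 100 kb below therefore come from unlike gene sets. How far the left-out chromosomes move the share of the whole list was not tested. For 6 genes every such neighbour went the same way, and these include BHLHE41 with 4 neighbours and SOX6 with 3. For 3 genes, DLX3, HOXA13 and LHX6, the 1 neighbour each had went the other way. Within 100 kb 12 of 15 pairs shared a direction (80.0%), against 86.2% of 667 pairs in the list. The 3 that did not were HES7 with ALOXE3, TBX6 with CORO1A, which was called higher 1.94-fold, and HOXB9 with CTD-2377D24.6, at 0.398 ± 0.132 FPKM in parental and 0.141 ± 0.0580 FPKM in resistant cells. Of 22 members found in GENCODE 29, 4 overlap their table locus in GRCh38, so the coordinates of the deposited table and those of the RefSeq start sites above belong to different builds and were not combined.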

How the data were processed

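Total RNA of 3 PC9 and 3 PC9-GR cultures was sequenced, and the groups were taken from the labels. The submitters' processing notes name TopHat and Cufflinks. Tool versions, the build, the annotation and how strand was treated were not given in the sources used here. Per the file headers, the authors deposited FPKM values for single libraries and for groups, with the authors' ratio, log2 ratio, p-value and q-value. Per the file headers the authors also deposited a score headed CV, which was not used. Every listed gene has an authors' log2 ratio of at least 1.0002 in size, and a p-value of at most 0.04965. The members and gene lists were chosen with earlier results of these data known.

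Deposited FPKM values were taken to log2(FPKM + 1), which understates changes of low genes. Genes at 1 FPKM or more in at least 3 of 6 libraries (1207 of 1705) were tested together with limma 3.58.1 (R 4.3.3; moderated variances with a trend on mean level, a group term and no covariate), with two-sided p-values adjusted by Benjamini-Hochberg. Members below the filter had exact permutation tests (scipy 1.17.1). Data were simulated from the residual spread of these 1207 genes, with a minority of genes changed and folds set on FPKM + 1. There the step called 74.6% of genes changed 1.5-fold, 92.5% changed 2-fold and 0.993% of unchanged genes. In the real list, selected as changed, 99.7% of tested genes were called, so these rates need not hold for it or for folds of FPKM. Alternatives were another pseudocount, filter, scaling or variance model, a replicate block and leaving out each library. Any member may be named. Values in all libraries are given for members at 5 FPKM or more in a group or against their class, and up to 2 called genes per direction are named in each pathway list; others are named where they complete a count of 5 or fewer or lie near a member. NPAS2, HIPK2, PITX1, SHOX2, GBX2, POU3F2 and ONECUT2 were chosen after their values were seen.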

Additional observations from a re-analysis of the deposited data

How the results depend on the processing

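The 13 calls among the members held with a pseudocount of 0.1, with median-ratio scaling, without a variance trend and with each library left out (13 to 13 calls, 7 to 7 higher and 6 to 6 lower). The list as a whole had 1203 calls, and 1192 to 1198 with a library left out (578 to 581 higher, 614 to 618 lower). With equal library totals the list had 1019 calls, 586 higher and 433 lower, so that 57.5% of calls were higher against 48.5% as deposited. With equal library totals 11 members were called, 7 higher and 4 lower, with ETV2 and DLX3 lost, and under quantile normalization 12, with HEY1 lost; the cause was not tested. Without the filter 23 members were called, 14 higher and 9 lower, since more genes were tested. With a filter at 5 FPKM fewer were tested, and 5 members were called, 2 higher and 3 lower, and 627 listed genes, 234 higher and 393 lower. No member changed direction in any setting run for it. The 10 members below the filter were compared only as deposited, without the filter, with equal library totals and with median-ratio scaling. The other settings were not run for them. Libraries of the same number share only that number: their deviations correlated at -0.0977, 0.0822 and 0.164, and PC9 replicate 1 correlated best with PC9-GR replicate 2 (0.198). With the replicate block 13 members and 1205 listed genes were called. Depth is unknown, and levels under 1 FPKM have folds of uncertain size.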
